A study of Mus musculus with 9 samples.

Results

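The unfolded protein response genes described here are 10 genes of the endoplasmic reticulum (ER) and its stress signalling: Hspa5, Sil1, Calr, Canx, Ern1, Eif2ak3, Atf6, Xbp1, Atf4 and Ddit3. They were chosen by name, as every probe set whose annotation gives one of these symbols alone, which yielded 30 of the 45037 probe sets that are not controls and 10 of the 18193 genes measured. Their levels were compared between 3 pools of motor neurons cut by laser from sections of wild-type C57BL/6J male mice at postnatal day 7. The pools were L5, the motor neurons at the fifth lumbar level, DL, those of the dorsolateral nucleus at the L6 level, and OMN, those of the oculomotor nucleus in the midbrain. Each pool had 3 arrays labelled as biological replicates, and the protocol states that all pools were taken from each animal. The mice are labelled wild type and untreated, so the values describe these neurons without disease. Cells were cut after a cresyl violet stain, their RNA was amplified, and surrounding tissue may have been cut along with them.

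Proteins that enter the ER are folded there by chaperones. When unfolded protein accumulates, the chaperone BiP leaves the sensors IRE1, PERK and ATF6 in the ER membrane. IRE1 then splices the Xbp1 mRNA, PERK phosphorylates the translation factor eIF2alpha and so favours translation of ATF4, and ATF6 is cut in the Golgi to free a transcription factor. Together they raise chaperones, degradation of misfolded protein and, when stress lasts, the pro-apoptotic factor CHOP. The response is studied in ALS because spinal motor neurons, which die early, show its markers in mouse models, while eye muscle and sphincter motor neurons are relatively spared. Splicing of Xbp1, phosphorylation and protein cleavage are not seen by these arrays, which measured RNA levels only.

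None of the 10 genes differed between pools at an adjusted p under 0.05 in limma. The count was 0 of 10 for L5 against OMN, where 2.17% of all genes were called, 0 of 10 for L5 against DL, where 2.55% were called, and 0 of 10 for DL against OMN, where 3.02% were called. At an unadjusted p under 0.05 the counts were 0, 0 and 1 gene, beside 15.9%, 18.9% and 16% of all genes. When every probe set was tested on its own, limma again called 0 of 30 in each comparison, beside 1.03% of all probe sets for L5 against OMN, 1.37% for L5 against DL and 1.92% for DL against OMN. At an unadjusted p under 0.05, 3, 4 and 3 of the 30 probe sets passed, or 10%, 13.3% and 10%, beside 13.6%, 16.5% and 14.6% of all probe sets. By the array maker's naming, the suffixes _s_at and _x_at mark probes that may also bind other transcripts. They are carried by the probe sets that stand for Calr (_x_at) and Xbp1 (_s_at), by the Xbp1 probe set with the widest gap (_s_at) and by the dim one of Eif2ak3 (_x_at), among others. All differences are of log2(intensity + 16), which understates the change of dim genes, and values are scaled array intensities, so levels are compared between pools and never between genes. In cut tissue, fewer cells of a type and less RNA per cell cannot be told apart.

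The median log2 difference of the 10 genes was -0.17 for L5 minus OMN, 0.32 for L5 minus DL and -0.21 for DL minus OMN, and that of all genes was 0.01, 0.06 and -0.04 in the same comparisons. These comparisons share arrays and are not separate pieces of evidence. Between the highest and the lowest pool mean the 10 genes spanned a median of 0.49 on the log2 scale, and the 18193 genes spanned 0.47. For 4 genes, Hspa5, Atf4, Calr and Canx, the 95% intervals of all 3 differences lay within a log2 difference of 1 in either direction. This holds for the probe sets that stand for these genes only. Another probe set of Atf4 had an interval of -1.47 to -0.21 for L5 minus DL. One of Calr had -1.18 to -0.09 for L5 minus OMN. For the other 6 genes the arrays could not bound the differences so closely, as the plot of fitted differences shows.

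**Figure D1:**
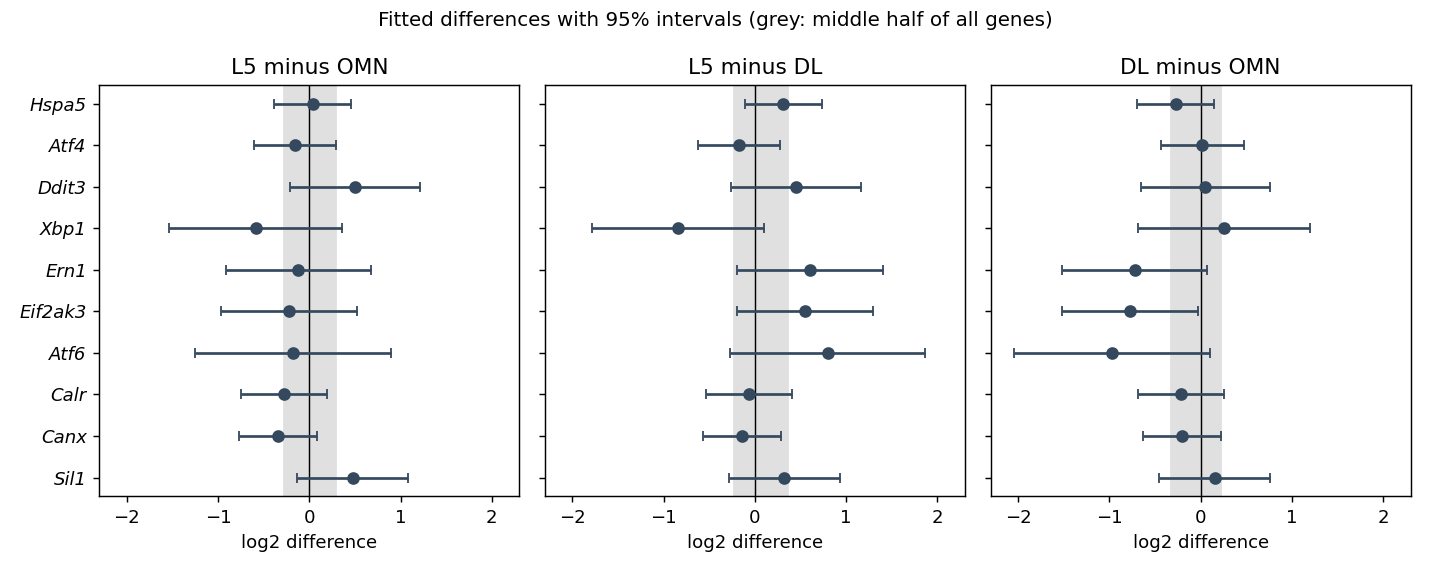
Fitted log2 differences (x axis, log2 of intensity + 16) of the 10 genes in the 3 comparisons, each with its 95% interval, and in grey the range from the lower to the upper quartile of all genes. Of the intervals only that of Eif2ak3 for DL minus OMN, -1.52 to -0.03, leaves out 0, and its adjusted p was 0.292.

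Among the chaperones BiP, the product of Hspa5, both folds proteins and holds the sensors silent. The promoters of 3 of the 4 chaperone genes are shown because they carry the ER stress response element, CCAAT and CCACG with 9 bases between them, through which the cleaved ATF6 factor and the CCAAT-binding factor NF-Y are known to raise chaperone genes. The element was searched on both strands from 250 bases before to 50 bases after the start. The RefSeq promoter table of GRCm38.p6 was used, which held 8 promoters of the 10 genes. The element was present in 39 of 32851 promoters, or 0.119%, and in those of Hspa5, Calr and Canx among the 8. In capitals below is the element, which in Calr lies on the opposite strand.
Hspa5, chr2:34771840-34772139, plus strand: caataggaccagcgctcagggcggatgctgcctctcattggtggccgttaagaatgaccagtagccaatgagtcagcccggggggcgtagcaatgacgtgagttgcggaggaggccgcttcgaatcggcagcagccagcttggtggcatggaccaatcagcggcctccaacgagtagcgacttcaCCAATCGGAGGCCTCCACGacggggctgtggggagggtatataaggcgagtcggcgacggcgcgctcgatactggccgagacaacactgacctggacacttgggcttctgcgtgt
Calr, chr8:84846882-84847181, minus strand: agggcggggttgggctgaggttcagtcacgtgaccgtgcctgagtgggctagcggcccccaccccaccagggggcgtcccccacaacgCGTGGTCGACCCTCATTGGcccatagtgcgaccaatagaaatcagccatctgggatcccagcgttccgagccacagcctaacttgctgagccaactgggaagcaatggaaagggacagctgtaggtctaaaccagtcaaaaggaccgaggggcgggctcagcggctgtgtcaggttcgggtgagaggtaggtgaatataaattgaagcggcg
Canx, chr11:50325624-50325923, minus strand: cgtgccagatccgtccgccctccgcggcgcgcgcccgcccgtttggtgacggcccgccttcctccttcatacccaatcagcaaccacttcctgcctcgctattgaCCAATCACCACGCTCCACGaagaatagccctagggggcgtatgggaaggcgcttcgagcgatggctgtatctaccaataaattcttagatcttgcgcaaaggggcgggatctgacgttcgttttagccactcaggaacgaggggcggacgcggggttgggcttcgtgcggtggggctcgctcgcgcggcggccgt

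The element begins 65 bases before the start in Hspa5, 162 in Calr and 145 in Canx. The letters of the related element II (ATTGG and CCACG with 1 base between them), of the unfolded protein response element core (TGACGTGG) and of the CEBP-ATF response element core (TGATGNAA) were not found in the 8 promoters of these genes, while 0.037%, 0.676% and 3.969% of all promoters held them. A match is a description of the sequence only. On the arrays 20 genes with the element were measured, among them the folding genes Hsp90b1, Pdia6, Dnajc3, Ero1b and Creld2 and the degradation genes Syvn1 and Derl3. Limma called 0 of the 20 in each of the 3 comparisons, beside 2.05%, 2.46% and 2.96% of the 14452 measured genes with a promoter in the table for L5 minus OMN, L5 minus DL and DL minus OMN. Their median log2 difference was -0.01 for L5 minus OMN, 0.07 for L5 minus DL and -0.13 for DL minus OMN, against 0.02, 0.07 and -0.04 for those with a promoter in the table.

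Hspa5, which encodes BiP, had intensities of 3877, 3945 and 3123 in L5, 3070.4, 3071 and 2651 in DL, and 3541, 3502 and 3556 in OMN with the brightest of its probe sets. The DL arrays lay below all arrays of both other pools, whereas L5 and OMN overlapped. The log2 difference was 0.04 ± 0.18 (SE) for L5 minus OMN, with a 95% interval of -0.38 to 0.46 (limma adjusted p = 0.945), 0.31 ± 0.18 for L5 minus DL (adjusted p = 0.409) and -0.27 ± 0.18 for DL minus OMN (adjusted p = 0.542). The second probe set turned the order round, with 1576, 1569 and 1630.3 in L5, 1954, 1821 and 1712 in DL and 1579.7, 1741 and 1459.6 in OMN. On it DL was the highest pool by mean, at a log2 difference of -0.20 ± 0.18 for L5 minus DL (adjusted p = 0.658). The low DL level of Hspa5 therefore rests on 1 of its 2 readable probe sets, since the remaining one did not exceed the noise level of 18.3, the highest value of the bacterial control probe sets, on any array.

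Sil1 encodes a nucleotide exchange factor that lets BiP release its substrate, and loss of the human gene causes Marinesco-Sjögren syndrome. Its only probe set read 604, 678 and 471 in L5, 541, 434 and 413 in DL, and 412, 318 and 530.4 in OMN. L5 had the highest mean, 584 ± 105 (SD, n = 3), against 463 ± 68.4 in DL and 420.2 ± 106 in OMN, yet the pools overlapped pairwise. The log2 difference was 0.47 ± 0.26 for L5 minus OMN (adjusted p = 0.427), 0.32 ± 0.26 for L5 minus DL (adjusted p = 0.565) and 0.15 ± 0.26 for DL minus OMN (adjusted p = 0.848). The interval for L5 minus OMN, -0.13 to 1.08, leaves room for no difference and for one of a log2 unit.

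Calr encodes calreticulin, a lectin chaperone of the ER lumen that also stores calcium. The brightest of its 3 probe sets read 2473, 2626 and 3410 in L5, 2885, 2825 and 3119 in DL, and 3735, 3384 and 3144 in OMN. DL lay below OMN without overlap, and L5 overlapped both. All 3 probe sets had a lower mean in L5 than in OMN, by log2 differences of -0.64 to -0.28. One of the probe sets had an unadjusted p of 0.0276 (limma adjusted p = 0.293), at 870, 975 and 1469 in L5 and 1699.6, 1861 and 1510 in OMN, and was the one probe set of Calr on which L5 and OMN did not overlap. On this probe set L5 replicate 3 read well above the other L5 arrays.

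Canx encodes calnexin, the membrane-bound partner of calreticulin in the folding of glycoproteins. With its brightest probe set it read 1352, 1499.9 and 1503 in L5, 1758, 1587 and 1465 in DL, and 1970.3, 1795 and 1768 in OMN. OMN lay above L5 and above DL without overlap, and L5 and DL overlapped. The log2 difference was -0.34 ± 0.18 for L5 minus OMN (adjusted p = 0.417), -0.14 ± 0.18 for L5 minus DL (adjusted p = 0.745) and -0.20 ± 0.18 for DL minus OMN (adjusted p = 0.676). The other probe sets, both above noise on all arrays, gave 0.06 and -0.12 for L5 minus OMN and -0.06 and -0.03 for DL minus OMN, and on both of them the pools overlapped in these comparisons.

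**Figure D2:**
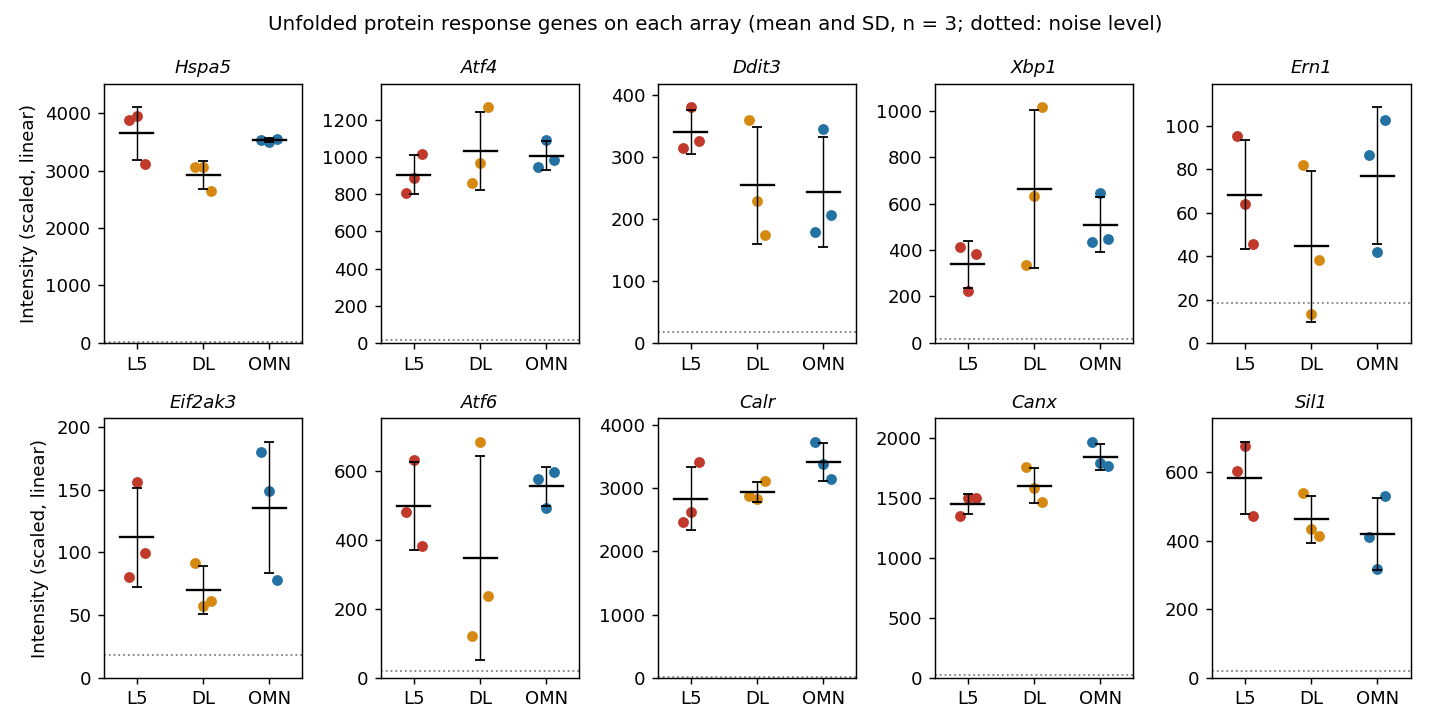
Intensity (y axis, linear, from 0) of the probe set that stands for each gene on each array, for L5, DL and OMN from left to right, with the mean (long bar) and SD of 3 arrays and the noise level of 18.3 as a dotted line. Canx is higher in OMN than on any L5 or DL array, Hspa5 is lowest in DL, and the DL values of Xbp1 and Atf6 spread over more than those of the other pools.

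The sensors had wider intervals than the chaperones Hspa5, Calr and Canx. Ern1, which encodes IRE1alpha, the kinase and nuclease that splices Xbp1, had 5 probe sets and none exceeded the noise level on all 9 arrays. The brightest read 95.5, 64.3 and 45.5 in L5, 82.3, 13.5 and 38.2 in DL, and 86.6, 41.8 and 102.9 in OMN. The pools overlapped in every pair, and the log2 difference was -0.12 ± 0.34 for L5 minus OMN (adjusted p = 0.909), 0.60 ± 0.34 for L5 minus DL (adjusted p = 0.395) and -0.72 ± 0.34 for DL minus OMN (adjusted p = 0.366). All 3 intervals of Ern1 included 0. The dimmer probe sets of Ern1 had the opposite signs, from -0.60 to -0.13 for L5 minus DL and from 0.12 to 0.59 for DL minus OMN.

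Eif2ak3 encodes PERK. Its probe set above noise on all arrays read 80.7, 156 and 99.2 in L5, 91.8, 57.0 and 61.5 in DL, and 180.5, 149 and 78.1 in OMN. DL had the lowest mean, 70.1 ± 18.9, and OMN the highest, 136 ± 52.4, and the pools overlapped. DL minus OMN was -0.77 ± 0.32 (unadjusted p = 0.0439 and adjusted p = 0.292 by limma), the only one of the 30 gene comparisons under an unadjusted 0.05. A dim probe set of Eif2ak3, with 18.8, 21.7 and 24.6 in L5 against 1.6, 8.8 and 1.1 in DL and 8.6, 15.8 and 8.4 in OMN, exceeded the noise level on the L5 arrays alone, by little. It had the smallest p of all 30 probe sets for L5 minus DL (log2 difference 0.95 ± 0.20, adjusted p = 0.077), and its log2 difference was 2.58 with a pseudocount of 1 and 0.34 with a pseudocount of 64. For DL minus OMN this dim probe set gave -0.45 ± 0.20. The third probe set of the gene, above noise on 6 arrays, gave 0.09 ± 0.56 for DL minus OMN. Its means were 58.0 ± 23.2 in L5, 36.4 ± 34.2 in DL and 36.6 ± 41.4 in OMN.

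Atf6 encodes the sensor that becomes a transcription factor. The brightest of its 3 probe sets read 482, 632 and 380.4 in L5, 122, 683 and 238 in DL, and 577, 492 and 598 in OMN. DL held both the lowest and the highest value, and DL replicate 2 lay above every array of the other pools. The other probe sets spread less within DL. One read 124, 94.9 and 91.5 in L5, 60.3, 49.1 and 75 in DL and 103.3, 127 and 117 in OMN, with DL below both other pools without overlap. The other read 38.3, 77.1 and 43.1 in L5, 49.3, 45.1 and 26.5 in DL and 93.2, 87.5 and 88.4 in OMN, with OMN above both other pools. For DL minus OMN all 3 probe sets were negative, at -0.97 ± 0.46, -0.78 ± 0.22 and -0.93 ± 0.25, with adjusted p = 0.396, 0.154 and 0.131 over all probe sets by limma. Without DL replicates 1 and 3 the first turned to 0.20, and the others were -1.02 and -1.01. Probe sets of 1 gene share their samples and are not replicates of one another.

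The largest differences among the transcription factors were those of Xbp1, the target of IRE1 splicing and a driver of degradation and secretion genes. Its brightest probe set read 412, 222 and 382 in L5, 337, 634 and 1015 in DL, and 435, 647 and 447 in OMN. L5 lay below OMN without overlap and overlapped DL in 1 array. The 4 probe sets of Xbp1 were all above noise on every array, and all had the lowest mean in L5 and the highest in DL. Their log2 differences for L5 minus DL ran from -1.50 to -0.68, for L5 minus OMN from -0.74 to -0.21 and for DL minus OMN from 0.26 to 0.76.

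The Xbp1 probe set with the widest gap had 190, 89.0 and 180 in L5, 438, 388 and 504 in DL, and 235, 345 and 202 in OMN. No pool overlapped another on it. L5 minus DL was -1.50 ± 0.33 with a 95% interval of -2.27 to -0.73 (unadjusted p = 0.00232, adjusted p = 0.0836 over all probe sets by limma). The adjusted p was 0.0352 with no replicate block, 0.0236 with a trend and robust variances and 0.0466 among probe sets with a mean over 50, and it was above 0.05 under the remaining 16 alternatives, up to 0.356. The difference itself stayed between -1.70 and -1.13 over all 19 alternatives. DL replicate 3 had the highest value of the 9 arrays on all 4 probe sets of Xbp1, and L5 replicate 2 the lowest. Without L5 replicate 2 the log2 difference was -1.13 (adjusted p = 0.239), and without DL replicate 3 it was -1.40 (adjusted p = 0.195).

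Signs of RNA quality and of other cells differed between the pools, some of them setting DL apart and others L5. For Gapdh, the ratio of the 3' control probe set to the 5' one reached 3.27, 2.44 and 3.75 in DL, against 2.33 to 2.67 in L5 and OMN. Of 13 oligodendrocyte markers 3 were lower in L5 than in DL by limma, and their summed intensity ranged from 18610 to 19574 in L5, 24263 to 26843 in DL and 15339 to 16848 in OMN. Among 4 markers of inhibitory interneurons Gad1 and Gad2 were lower in L5 than in both other pools by limma. Slc6a5 went the other way against OMN, higher in L5 (log2 difference 3.93) and in DL (4.23). Slc32a1 was higher in DL than in OMN (1.97). The sums of the 4 were 1628 to 2232 in L5, 5017 to 5875 in DL and 1852 to 2674 in OMN. Among 12 astrocyte markers limma called S100b for L5 minus DL only, at a log2 difference of 1.14. The filament gene Gfap was called in all 3 comparisons. Its log2 differences were -2.14 for L5 minus DL, 3.31 for L5 minus OMN and 5.45 for DL minus OMN. The sums of the 12 astrocyte markers were 24778 to 26960.0 in L5, 20155 to 22607 in DL and 20220 to 20866 in OMN. No marker of these lists was at the noise level throughout a pool. Endothelial marker sums, over 9 genes with 0 called, were 736 to 1164 in L5, 1498 to 1813 in DL and 1328 to 1595 in OMN, so L5 was lowest here as for Xbp1. The sums of 12 microglia markers, with 0 called, overlapped between the pools. Pmp22, a myelin gene of the Schwann cell and sensory neuron list, averaged 2060 ± 176 in L5, 875 ± 183 in DL and 135 ± 37.1 in OMN. Pou4f1 of that list ran the other way, at 62.5 ± 21.1 in L5, 185 ± 133 in DL and 365 ± 55.0 in OMN, and was not called. Trpv1, the remaining gene measured, was below noise on all arrays. Slc17a6, the transporter that loads glutamate into vesicles, averaged 456 ± 59.8 in L5, 202 ± 73.8 in DL and 1124 ± 136 in OMN. Limma called Pmp22 and Slc17a6 in all 3 comparisons. The part of these features in the Xbp1 and Atf6 values was not tested. Without DL replicates 1 and 3, which had the highest Gapdh ratios, a single DL array was left and assumed to vary like the others. The Xbp1 probe set then differed by -1.42 for L5 minus DL (adjusted p = 0.356), while the brightest Atf6 probe set turned to -0.37 for L5 minus DL (adjusted p = 0.699) and 0.20 for DL minus OMN (adjusted p = 0.871).

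**Figure D3:**
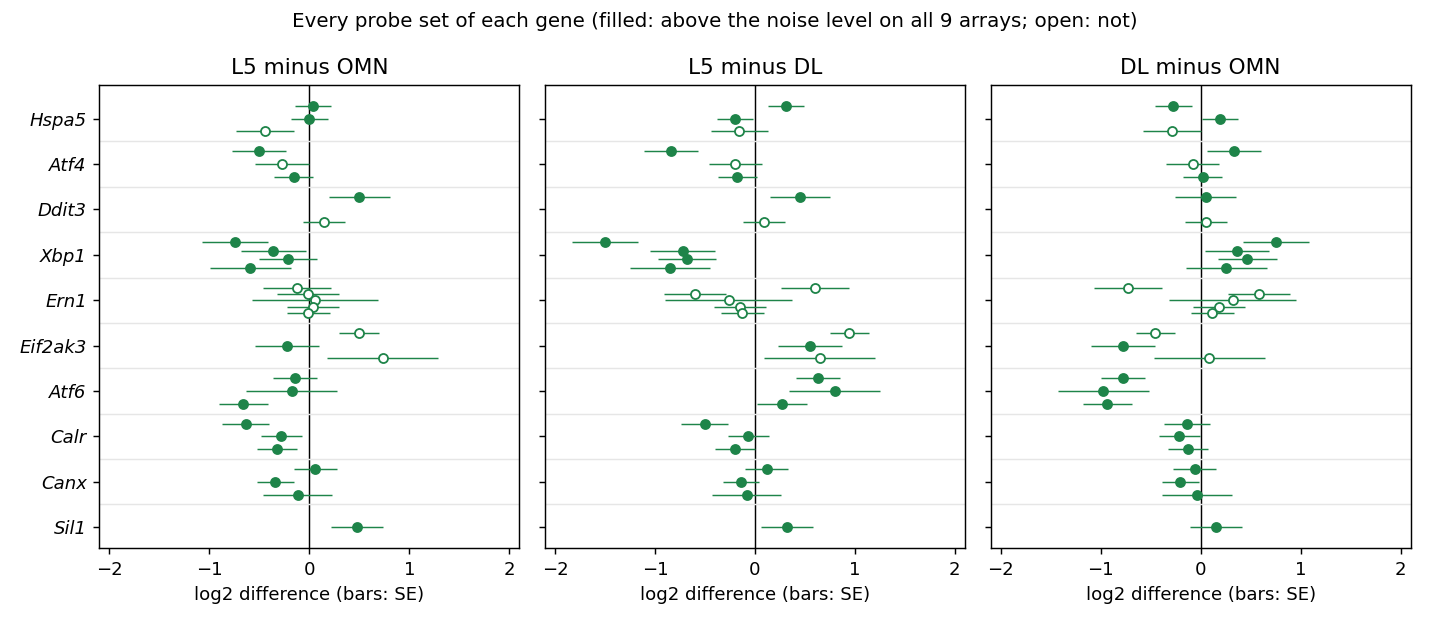
Log2 difference (x axis, bars are SE) of each of the 30 probe sets, grouped by gene, for the 3 comparisons, with filled points for the 20 probe sets above the noise level on all 9 arrays. The 4 probe sets of Xbp1 lie left of 0 for L5 minus DL, the 3 of Atf6 lie left of 0 for DL minus OMN, and the filled points of Hspa5 fall on both sides of 0 for L5 minus DL.

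Atf4 encodes the factor whose translation rises when PERK or a related kinase phosphorylates eIF2alpha. Its brightest probe set read 808, 890.4 and 1018 in L5, 862, 969 and 1269 in DL, and 946, 1095 and 984 in OMN, with overlap in every pair. L5 minus OMN was -0.16 ± 0.19 (adjusted p = 0.753), L5 minus DL -0.18 ± 0.19 (adjusted p = 0.686) and DL minus OMN 0.02 ± 0.19 (adjusted p = 0.982). A second probe set, with the suffix _x_at, read 427, 595 and 648 in L5, 1253, 1014 and 770.2 in DL, and 697, 789 and 876 in OMN. On it L5 lay below both other pools without overlap, at -0.84 ± 0.27 for L5 minus DL (unadjusted p = 0.0156, limma adjusted p = 0.186).

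Ddit3 encodes CHOP, the pro-apoptotic factor downstream of ATF4. It read 314, 381 and 326 in L5, 359, 230 and 175 in DL, and 179.9, 345 and 207 in OMN, and its other probe set did not exceed the noise level on any array. L5 had the highest mean, 340.3 ± 35.5, against 255 ± 94.9 in DL and 244 ± 88.7 in OMN, but 1 array of each other pool reached the L5 range. The log2 difference was 0.50 ± 0.30 for L5 minus OMN (adjusted p = 0.476), 0.45 ± 0.30 for L5 minus DL (adjusted p = 0.483) and 0.05 ± 0.30 for DL minus OMN (adjusted p = 0.966).

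The pools of 2 genes, Xbp1 and Canx, did not overlap for L5 against OMN, beside 27.4% of all genes. Both were lower in L5, where 12.8% of all genes were lower and 14.6% higher. For L5 against DL 1 gene, Hspa5, was separated and higher in L5, beside 23.5% of all genes, with 13.8% higher and 9.67% lower. For DL against OMN 3 genes, Hspa5, Calr and Canx, were separated and lower in DL, beside 21.1% of all genes, with 9.51% higher and 11.6% lower. Over probe sets, 7 of 30 (23.3%) were separated for L5 against OMN, where 23.4% of all probe sets were. Of these 1 was higher in L5 (background 11.6%) and 6, or 20%, were lower (background 11.8%). For L5 against DL 8 of 30 (26.7%, background 20.8%) were separated, 3 higher in L5 (background 12.9%) and 5 lower (background 7.88%). For DL against OMN 7 of 30 (23.3%, background 19.4%) were separated, 2 higher in DL (background 7.17%) and 5 lower (background 12.2%). Probe sets of a gene share their RNA, so these counts are not independent.

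The genes around these 10 were followed in 7 lists with 145 measured genes. For L5 minus OMN, L5 minus DL and DL minus OMN limma called 3, 2 and 2 of them, or 2.07%, 1.38% and 1.38%, near or below the 2.17%, 2.55% and 3.02% of all genes. At an unadjusted p under 0.05 there were 18, 25 and 18, or 12.4%, 17.2% and 12.4%, beside 15.9%, 18.9% and 16% of all genes. Of 23 ER chaperones and folding enzymes 0 were called, with 2, 2 and 1 at an unadjusted p under 0.05 in the same order of comparisons. Of 11 genes of the lectin cycle 0 were called, with 0, 0 and 2 under that p, and of 23 translocon and signal processing genes 0, with 2, 2 and 0. Of 24 genes of ER-associated degradation 0 were called, with 2, 7 and 0, the 7 being 29.2% of the list. The 3 lists with calls had 5, 7 and 3 of 25 genes (eIF2alpha kinases, phosphatases and ATF4 targets), 4, 3 and 8 of 20 (other sensors and signalling, the 8 being 40% of the list) and 3, 4 and 4 of 19 (ER calcium) under an unadjusted 0.05.

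Sdf2l1, a BiP co-factor in the ER, averaged 287 ± 54.4 in L5, 269 ± 23.8 in DL and 159 ± 24.0 in OMN, without overlap of OMN with L5 or DL (limma adjusted p = 0.126 for L5 minus OMN). The 4 smallest p-values among the degradation genes for L5 minus DL went both ways. Edem1, which helps extract misfolded glycoproteins, averaged 64.6 ± 19.3 in L5, 239 ± 141 in DL and 145 ± 40.0 in OMN (adjusted p = 0.169 for L5 minus DL). Edem3, of the same family, differed by -0.94 (adjusted p = 0.214) and Ufd1, a partner of the extraction ATPase, by -0.53 (adjusted p = 0.221). Herpud1, a part of the degradation complex, had the opposite sign, at 147 ± 51.9 in L5, 83.4 ± 3.25 in DL and 121 ± 26.4 in OMN. Its L5 minus DL was 0.66 ± 0.24 on the log2 scale (limma adjusted p = 0.19). The chaperone genes Manf and Dnajc3 had the sign of Herpud1 for L5 minus DL, at 0.64 (adjusted p = 0.246) and 0.55 (adjusted p = 0.323). The folding list was mixed, with 15 of its 23 genes above 0 for L5 minus DL. Dnajb9 of that list was lower in L5 without overlap, at -0.45 (limma adjusted p = 0.287).

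Among 25 genes of eIF2alpha kinases, phosphatases and ATF4 targets 0, 0 and 1 were called in the 3 comparisons. Eif2ak4, which encodes the amino acid sensor GCN2, was lower in DL than in OMN, at 64.5 ± 38.6 against 237 ± 26.0 (log2 difference -1.79 ± 0.32, adjusted p = 0.0343), with 1 probe set of 2, the other never above noise. This difference of DL from OMN was called under 9 of 21 alternatives. L5, at 92.9 ± 7.04, also lay below OMN without overlap (log2 difference -1.21 ± 0.32, limma adjusted p = 0.132). Chac1, a target of ATF4 and CHOP, averaged 202 ± 19.5 in L5, 128 ± 82.8 in DL and 81.9 ± 27.7 in OMN, a log2 difference of 1.19 ± 0.27 for L5 minus OMN that missed the threshold (adjusted p = 0.0879). The DL arrays spread widely for Chac1 and Eif2ak4.

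Of 20 other sensors and signalling genes 2, 1 and 1 were called for L5 minus OMN, L5 minus DL and DL minus OMN, or 10%, 5% and 5% of the list, beside 2.17%, 2.55% and 3.02% of all genes. Wfs1, which encodes wolframin, an ER membrane protein that restrains ATF6, was higher in L5 than in OMN, at 1498 ± 177 against 589 ± 45.6 (log2 difference 1.32 ± 0.22, adjusted p = 0.0313), and DL stood between at 1135 ± 297. Mbtps2, the Golgi protease that makes the second cut in ATF6, was lower in L5 than in OMN, at 50.9 ± 21.5 against 155 ± 5.93 (log2 difference -1.41 ± 0.22, adjusted p = 0.0282). DL, at 74.4 ± 12.1, also lay below OMN without overlap (log2 difference -0.93 ± 0.22, limma adjusted p = 0.0849). Bcl2l11, which encodes the pro-apoptotic protein BIM, was lower in L5 than in DL, at 152 ± 60.4 against 656 ± 235 (log2 difference -2.01 ± 0.39, adjusted p = 0.0487), and higher in DL than in OMN (158 ± 44.8, log2 difference 1.93 ± 0.39, adjusted p = 0.0495). For Bcl2l11 the probe sets disagreed in the comparisons with L5. Another of the 5, also above noise on all arrays, gave 0.48 for L5 minus DL and 1.83 for L5 minus OMN (adjusted p = 0.0387 over all probe sets). For DL minus OMN it had the sign of the first, at 1.35 (limma adjusted p = 0.0709 over all probe sets). Over 21 alternatives Wfs1 was called in 13, Mbtps2 in 12 and each Bcl2l11 difference in 5. The Wfs1 call was lost on leaving out any L5 or OMN array or DL replicate 1.

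Of 19 ER calcium genes 1 was called for L5 minus OMN and 1 for L5 minus DL, each 5.26% of the list, and 0 for DL minus OMN. Itpr3, an inositol trisphosphate receptor, averaged 42.1 ± 6.00 in L5 and lay at or below noise on all OMN arrays (2.43 ± 1.63), at least 2.29-fold higher in L5 (adjusted p = 0.00776), with DL at 19.1 ± 8.17. Stim2, which senses calcium in the ER, was at 498 ± 44.0 in L5 against 190 ± 42.5 in DL (log2 difference 1.34 ± 0.21, adjusted p = 0.0258) and 269.8 ± 12.5 in OMN, with 1 of its 2 probe sets called. Itpr3 was called under 16 of 20 alternatives and Stim2 under 10 of 21.

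**Figure D4:**
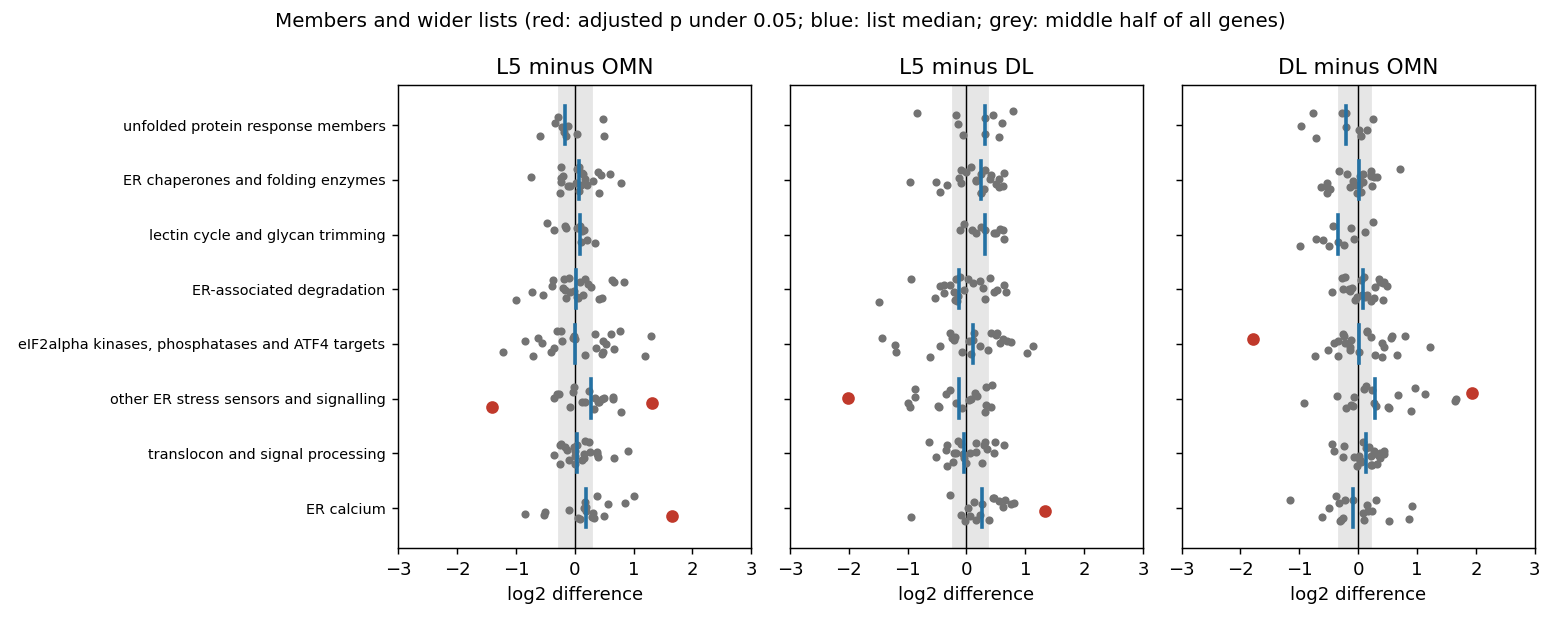
Log2 difference (x axis) of each measured gene in the list of the 10 genes and in the 7 wider lists, for the 3 comparisons, with called genes in red, list medians in blue and the range from the lower to the upper quartile of all genes in grey. The members and the folding, lectin, degradation and translocon lists hold no red point.

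By their values over the 9 arrays, the genes most like Hspa5 on its brightest probe set were Exoc4, Rdx, Slc3a1, Atp2a2 and Map1b. Their root mean square distances were 0.07 to 0.08 on the log2 scale after centring, where the median gene lay at 0.42. The second readable probe set of Hspa5, with its highest mean in DL, was not used here. Atp2a2 encodes the SERCA2 pump that fills the ER with calcium, and Map1b is a microtubule protein of neurons. Those most like Sil1 were Cep131, Elmod2, Slc43a2, Parn and Pigk, at 0.13 to 0.17, where the median gene lay at 0.49. The arrays compared are the same 9 in each case.

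Of 9 motor neuron markers measured, several differed between the pools. The acetylcholine transporter Slc18a3 ranged from 2294 to 3574 in L5, 774 to 2556 in DL and 1997 to 2755 in OMN, and the lowest array read 2864 for the choline transporter Slc5a7 and 4571 for the filament Prph. Chat read at most 24.5 with the probe set standing for it, near the noise level. The transcription factor Mnx1 averaged 128 ± 40.9 in L5 and 94.5 ± 25.9 in DL and was below noise on all OMN arrays, at 0.9, 1.4 and 3, and Isl2 averaged 85.6 ± 51.8 in L5, 96.2 ± 7.82 in DL and 12.6 ± 8.05 in OMN. Isl1 averaged 598 ± 134 in L5, 2717 ± 414 in DL and 2129 ± 45.7 in OMN and was lower in L5 than in both other pools by limma. Lhx4 averaged 332 ± 46.5 in L5, 111 ± 89.2 in DL and 1479 ± 122 in OMN and was lower in DL than in OMN. Prph was higher in L5 than in OMN, and Ache read 589.8 to 1309.7 over all arrays. Replicates were most spread in DL, with a median SD of 0.295 on the log2 scale over 7123 genes with a mean above 200, against 0.204 in L5 and 0.171 in OMN. Because the fit uses 1 spread per gene for all pools, errors of differences with DL can be too small. Of the 30 probe sets, 20 exceeded the noise level on all arrays, 8 on some and 2 on none, and 9 of the 10 genes had a representing probe set above noise throughout, Ern1 being the exception.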

How the data were processed

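Amplified, biotin-labelled RNA of laser-cut motor neurons was measured on Affymetrix mouse arrays, per the labels' protocols. The authors deposited 1 table of linear intensity values for 45101 probe sets. Without the top and bottom 2% of values, each array averaged 250, so a common scaling target had been applied. The sources used here do not name the software. Of 45037 probe sets that are not controls, 34945 named 1 gene in the platform annotation. The probe set with the highest mean stood for each of 18193 genes.

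Values were converted to log2(intensity + 16) and fitted with limma 3.58.1 in R 4.3.3 on all 9 arrays, with terms for pool and for replicate number. The Benjamini-Hochberg adjustment ran over all genes. A second fit and adjustment took every probe set that is not a control. The noise level of 18.3 is the highest value of 27 bacterial control probe sets. The fit was tested on simulated arrays. The members and lists were chosen with earlier results of these data known, so no p-value is adjusted over a list alone. Named genes are the members, genes among the 4 smallest p-values of a list, called markers, and the 5 genes nearest to Hspa5 and to Sil1 with a mean over 50. Sdf2l1, Chac1, Manf and Dnajc3 were picked after their values were seen. Alternatives were 11 other settings, the omission of each of 9 arrays, and 1 omission of 2 DL arrays added later. Promoter sequences are from RefSeq, build GRCm38.p6. The number of arrays limits the precision.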

Additional observations from a re-analysis of the deposited data

How the results depend on the processing

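The count of called members stayed at 0 of 10 genes in all 3 comparisons under every alternative run, 21 in number, including the omission of DL replicates 1 and 3, which was chosen after seeing the data. Among the 30 probe sets the count for L5 minus DL was 2 with no replicate block (1 higher and 1 lower), 1 with a trend and robust variances and 1 among probe sets with a mean intensity over 50. Xbp1 was the probe set called in each, joined without the block by the dim one of Eif2ak3 (adjusted p = 0.0489). The block was kept because each animal gave all pools, but arrays of equal number did not deviate together (correlations of -0.07 to 0.06 over 9 pairs, against -0.07 to 0.05 over 18 pairs of unequal number), so the numbers may not mark animals.

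Of 30 member differences, 16 kept their sign throughout and 14 did not, and none of those 14 was called. Quantile normalization gave -0.11 for Hspa5, L5 minus OMN, and -0.029 for Atf4, DL minus OMN. The mean of all probe sets gave -0.13 for Hspa5 and 0.33 for Eif2ak3, both L5 minus OMN, -0.014 for Hspa5 and -0.11 for Ern1, both L5 minus DL, and 0.10 for Ern1, DL minus OMN. Without DL replicates 1 and 3, Atf6 was -0.37 for L5 minus DL and 0.20 for DL minus OMN, and for DL minus OMN Atf4 was -0.10 and Ddit3 -0.37. With probe sets free of a suffix, Bcl2l11 was 0.48 for L5 minus DL and Eif2ak4 0.020 for DL minus OMN, since that choice takes another probe set. Leaving out each array in turn gave log2 differences of -0.47 to 0.15 for Eif2ak3 (L5 minus OMN), -0.21 to 0.051 for Calr (L5 minus DL), -0.016 to 0.13 for Hspa5 (L5 minus OMN), -0.48 to 0.19 for Ern1 (L5 minus OMN), -0.33 to 0.29 for Ddit3 (DL minus OMN), -0.12 to 0.10 for Atf4 (DL minus OMN), -0.10 to 0.69 for Xbp1 (DL minus OMN), -0.67 to 0.13 for Atf6 (L5 minus OMN) and -0.060 to 0.44 for Sil1 (DL minus OMN).

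Counts over all genes moved more, and the cause was not tested. For L5 minus OMN, L5 minus DL and DL minus OMN they were 394, 464 and 550, against 103, 61 and 200 with a pseudocount of 1. Trend and robust variances together called 946, 1153 and 880. For L5 minus OMN 602 genes were called with a pseudocount of 64 and 676 with array weights. For L5 minus DL the count was 814 with a pseudocount of 64, 806 with no replicate block, 699 among genes with a mean over 50, 46 with the 2 pools alone and 0 without DL replicates 1 and 3. For DL minus OMN it was 120 with the 2 pools alone and 128 without DL replicates 1 and 3. Leaving out 1 array gave as few as 83, 55 and 186. The wider lists held 3, 2 and 2 calls, against 1, 0 and 1 with a pseudocount of 1, and for DL minus OMN 4 with no replicate block and 4 with arrays centred on their medians.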
